A study of Mus musculus with 6 samples.

Results

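The genes described here were 40 genes of ribosome biogenesis that are counted among the textbook targets of the transcription factor MYC. They were taken as the rows of an RNA-seq expression table whose gene symbol is on a list of 40 names, and all 40 were found among the 20856 genes with values. The table covers 6 cell lines grown from mouse liver tumors, each sequenced as a library of its own: 3 *Myc*; sg*Trp53* lines and 3 *Myc*; sg*Kmt2c* lines. All 6 lines share the way the tumors were made. Adult female C57BL/6 mice received, by hydrodynamic tail vein injection, a transposon that carries a *Myc* cDNA together with the Sleeping Beauty transposase that integrates it, and the plasmid px330, which expresses Cas9 and guide RNAs only for a time. The guides were directed at *Trp53*, which encodes the tumor suppressor p53, in one group, and at *Kmt2c*, which encodes the histone methyltransferase MLL3, in the other. Tumor cells were cultured on collagen until no fibroblasts were seen, and received no treatment. By design neither group has *Trp53* and *Kmt2c* both intact, none lacks the *Myc* transposon, and the lines are not isogenic. Per the study's resource table each line came from a different mouse, and the labels name sg*Kmt2c* lines 2 and 3 as 2A and 2T1. The question put to these genes was how strongly the program was expressed in each line, and whether the 2 genotypes differed in it.

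Ribosome biogenesis starts in the nucleolus, where RNA polymerase I (Pol I) transcribes ribosomal DNA into a long precursor RNA. Small nucleolar ribonucleoproteins (snoRNPs) guide chemical modification of that precursor, and a large set of assembly factors cuts and folds it with ribosomal proteins into the small and large subunits. MYC binds, with its partner MAX, to E-box sequences near the start of many of these genes, and its activity is widely read from their expression because a growing cell needs many ribosomes. Regenerating hepatocytes and liver tumors are known for enlarged nucleoli.

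Values are RPKM, reads scaled to the transcript length listed for a gene and to the reads of the library, which give a gene's share of the library and not an amount of RNA per cell. The 6 libraries held 3680068 to 6878625 reads on genes, and the 40 genes were covered by 69 to 18563 reads per gene and library. As a check of the labels, *Trp53* measured 17.2, 17.6 and 19.4 RPKM across sg*Trp53* lines 1 to 3, against 92.2, 124 and 121 RPKM across sg*Kmt2c* lines 1 to 3 (log2 fold change 2.56, adjusted p = 0.0140, limma). The groups did not overlap. *Kmt2c* measured 24.2, 18.4 and 19.2 RPKM across sg*Trp53* lines 1 to 3, against 19.7, 25.0 and 9.51 RPKM across sg*Kmt2c* lines 1 to 3 (log2 fold change -0.27, adjusted p = 0.819, limma) and overlapped, so its level does not check the *Kmt2c* label. The lines stood apart from one another in marker genes of liver cell types. Hepatocyte markers (10 genes) summed to 43.7, 16.7 and 68.6 RPKM over the sg*Trp53* lines and to 5614, 2.33 and 302 RPKM over the sg*Kmt2c* lines, of which line 1 owed its sum mostly to *Apob* and *Hnf4a*, while *Alb*, the defining marker, lay between 0.644 and 4.36 RPKM in all 6 lines and *G6pc* was at 0 in all. Epithelial and biliary markers (8 genes) summed to 115 to 1695 RPKM for sg*Trp53* and 322 to 7386 RPKM for sg*Kmt2c*, and fibroblast markers (8 genes) to 15.0 to 986 RPKM and 0.282 to 149 RPKM. Immune markers (8 genes) summed to 21.9 to 58.7 RPKM for sg*Trp53* and to 5.51 to 15.4 RPKM for sg*Kmt2c*, with *Cd3e* at 0 in every library, and endothelial markers (5 genes) stayed at or below 0.284 RPKM.

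Because MYC binds the canonical E-box CACGTG, the promoters of the 40 genes were searched for it. RefSeq promoter windows on GRCm38.p6, from 250 bases before to 50 bases after the gene start, matched 35 of the 40 symbols, while *Npm1*, *Fbl*, *Bop1*, *Rrp12* and *Rrs1* had no entry. CACGTG, which reads the same on both strands, was found in 5 of the 35 windows, 1 match in each. The 30 bases that hold each match run as follows, 5′ to 3′ on the strand of the gene, with the E-box in capitals.
Nop2: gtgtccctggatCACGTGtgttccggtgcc
Pes1: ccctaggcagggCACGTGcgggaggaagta
Tsr1: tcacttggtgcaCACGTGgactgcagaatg
Utp20: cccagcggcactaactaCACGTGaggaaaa
Wdr43: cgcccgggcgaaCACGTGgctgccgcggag
Coordinates below are those of the 30 printed bases that hold a match. The *Nop2* match lies upstream, with its first base 60 bases before the start, within chr6:125131811-125131840 on the plus strand. The other four lie just downstream of the start, 2 bases in for *Pes1* (chr11:3963965-3963994, plus strand), 17 for *Wdr43* (chr17:71616220-71616249, plus strand), 24 for *Tsr1* (chr11:74898092-74898121, plus strand) and 37 for *Utp20* (chr10:88826765-88826794, minus strand). The share of 14.3% compared with 10.8% among 8493 other genes tested for expression, 21.6% among 88 other ribosome biogenesis genes and 38.1% among 21 MYC targets outside ribosome biogenesis. A variant E-box, CACGCG, searched on both strands, was found in 31.4% of the members' windows against 18.8% of the other genes tested, and *Pes1* alone among the members held both motifs. Over all 27025 genes in the promoter table the shares were 7.24% for CACGTG and 9.36% for CACGCG. A match of letters is not a site shown to be bound, and a window without one says nothing about MYC.

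**Figure D1:**
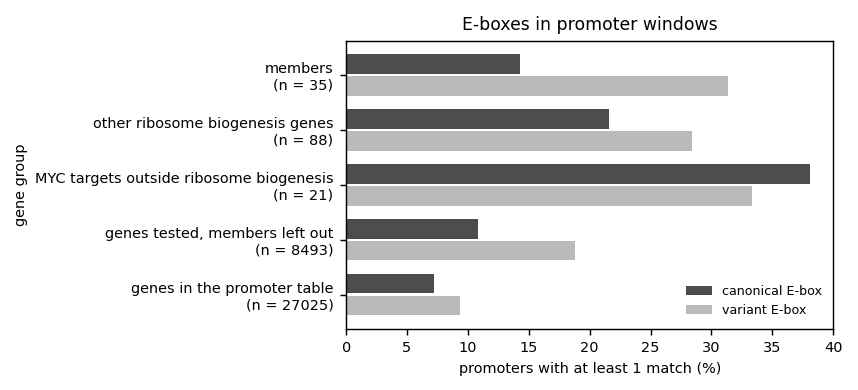
Share of promoter windows (x axis, percent) that hold at least 1 canonical E-box (CACGTG, dark bars) or variant E-box (CACGCG, light bars), for each gene group on the y axis with its number of windows. The members lie at 14.3% and 31.4%, the other genes tested at 10.8% and 18.8%, and the MYC targets outside ribosome biogenesis at 38.1% and 33.3%.

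Most of the 40 genes were abundant. Their mean over the 6 lines ranged from 7.76 RPKM for *Wdr12* to 1046 RPKM for *Npm1*, with a median of 61.1 RPKM. Of the 40, 38 lay above the median of all 11617 genes tested (14.7 RPKM), with *Wdr12* and *Polr1e* below it. The place of *Wdr12* depends on its listed transcript length, as described below. No member differed between the genotypes after adjustment. Of the 40, 0 had an adjusted p-value under 0.05 in limma, against 0.129% of all genes tested, and the lowest was 0.50 for *Gar1*. At an unadjusted p-value under 0.05, 1 member was lower in the sg*Kmt2c* lines (*Gar1*) where 5.34% of all genes tested were, and 0 were higher where 3.25% were. In 2 members, *Gar1* and *Pes1*, every sg*Kmt2c* line was below every sg*Trp53* line, a pattern found in 10.4% of genes tested. In 0 members did the lines separate the other way, as they did in 5.72% of genes. These counts are no higher than the background.

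The direction of the means was less even. In 32 of the 40 members the mean log2 level was lower in the sg*Kmt2c* lines, against 58% of all genes tested, and the median log2 fold change was -0.20 against -0.09 over all genes tested. Single values ran from -0.63 for *Noc2l* to 0.19 for *Ddx21*. The 95% interval of the log2 fold change lay inside -1 to 1, so that a 2-fold difference either way was outside it, for 25 members, against 45.9% of genes tested. For the other 15 members a 2-fold difference was not excluded by the interval. With 3 lines a genotype the interval reached, at the median over the members, 0.66 to either side on the log2 scale. At that width an estimated difference below 0.66 does not reach an unadjusted p-value under 0.05 in limma. The adjusted threshold asks for a larger one.

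The lower means went with a single line. Of the 40 members, 32 had their lowest value in sg*Kmt2c* line 1, while 35.9% of all genes tested did. Relative to each gene's mean over the 6 lines on the log2 scale, the members averaged 0.24, -0.07 and 0.12 in sg*Trp53* lines 1 to 3 and -0.54, -0.02 and 0.27 in sg*Kmt2c* lines 1 to 3. All genes tested averaged -0.10 in sg*Kmt2c* line 1 and between -0.04 and 0.07 in the other lines. Thus sg*Kmt2c* line 1 was the lowest of the 6 and sg*Kmt2c* line 3 the highest, with both within 1 genotype, and the other five lines overlapped between the genotypes. The pooled SD of this level within a genotype was 0.31. In sg*Kmt2c* line 1, 37 members were below their own mean, and 10 were under 50% of the mean of the other 5 lines, against 19.2% of all genes tested. The lowest of these were *Noc2l* at 34.7%, *Nolc1* at 34.9% and *Rrp9* at 35.7%. *Wdr74* (135%), *Nop56* (117%) and *Rrp12* (109%) were the 3 members above the mean of the other lines there, and *Wdr74* and *Nop56* had their highest value of all lines in it. sg*Kmt2c* line 1 was singled out after its values were seen. Scaling the libraries by TPM, quantiles or median of ratios left its level at -0.56, -0.52 and -0.44.

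**Figure D2:**
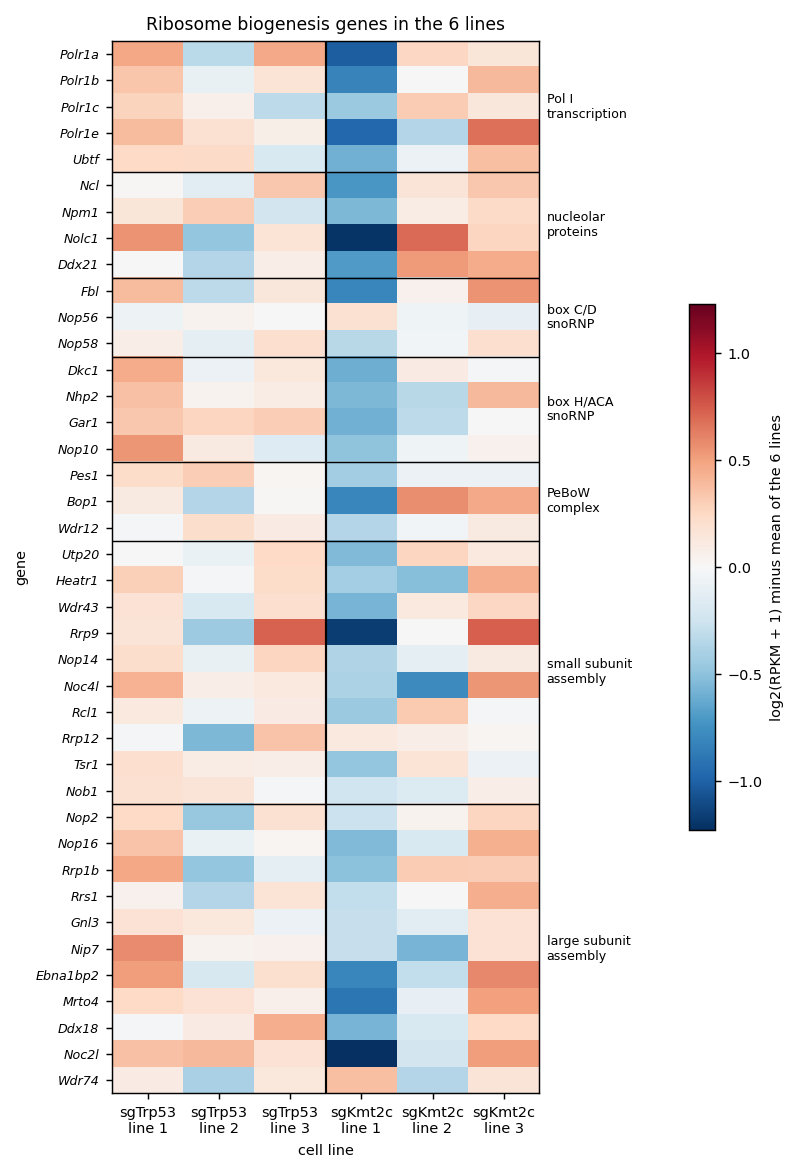
Each row is 1 of the 40 genes, grouped by role, and each column a cell line. Color gives log2(RPKM + 1) minus the gene's mean over the 6 lines, red above and blue below. The column of sg*Kmt2c* line 1 is blue for 37 of the 40 genes. The columns of sg*Trp53* line 2 and sg*Kmt2c* line 2 are mixed, each blue for 22 genes. Those of sg*Trp53* lines 1 and 3 and sg*Kmt2c* line 3 are mostly red, with 6, 8 and 5 genes blue.

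**Figure D3:**
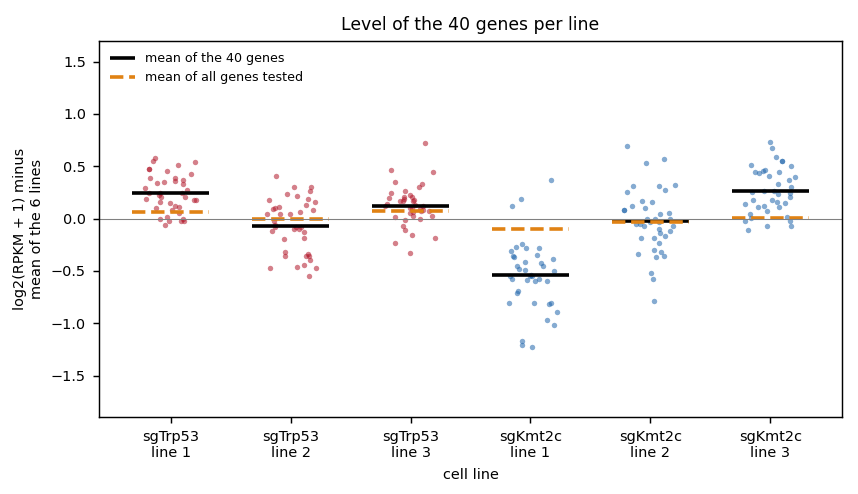
Points are the 40 genes in each line (y axis, log2(RPKM + 1) minus the gene's mean over the 6 lines), solid bars their mean and dashed bars the mean of all 11617 genes tested. The members averaged -0.54 in sg*Kmt2c* line 1 and 0.27 in sg*Kmt2c* line 3, and the sg*Trp53* lines lay between -0.07 and 0.24.

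The first step, Pol I transcription, was represented by 5 members, all 5 with a negative log2 fold change (median -0.28) and all 5 lowest in sg*Kmt2c* line 1. *Ubtf*, the HMG-box protein that keeps ribosomal DNA open, was the member of this group with the highest mean and measured 73.2, 73.1 and 54.3 RPKM across sg*Trp53* lines 1 to 3, against 40.6, 59.0 and 80.1 RPKM across sg*Kmt2c* lines 1 to 3. *Polr1a*, the catalytic subunit of Pol I, measured 58.8, 33.1 and 58.5 RPKM across sg*Trp53* lines 1 to 3, against 20.3, 50.3 and 46.8 RPKM across sg*Kmt2c* lines 1 to 3. Its value in sg*Kmt2c* line 1 was 41.1% of the mean of the other lines, while sg*Kmt2c* lines 2 and 3 lay within the range of the sg*Trp53* lines. *Polr1e*, a subunit of the heterodimer that helps Pol I initiate and elongate, was the least abundant of the 5 at 14.1, 12.1 and 11.2 RPKM against 4.90, 7.99 and 17.5 RPKM, and held both its lowest and its highest value in the sg*Kmt2c* group. The log2 fold changes were -0.43 for *Polr1e* (95% interval -1.45 to 0.58), -0.41 for *Polr1a* (-1.38 to 0.57), -0.28 for *Polr1b*, the second-largest subunit, -0.20 for *Ubtf* and -0.00 for *Polr1c*, which Pol I shares with Pol III. None passed the test.

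Among the 4 nucleolar proteins, 3 had a lower mean in the sg*Kmt2c* lines (median log2 fold change -0.15), and all 4 were lowest in sg*Kmt2c* line 1. *Npm1* (nucleophosmin), a histone and ribosome chaperone and the most abundant of the 40 transcripts, measured 1140.4, 1266 and 874 RPKM across sg*Trp53* lines 1 to 3, against 699.8, 1089 and 1208 RPKM across sg*Kmt2c* lines 1 to 3. The genotypes overlapped widely (log2 fold change -0.15, 95% interval -0.82 to 0.52). *Npm1* has processed pseudogenes of near-identical sequence, so its value is uncertain. *Ncl* (nucleolin), which binds the precursor RNA, had a log2 fold change of -0.15, and *Nolc1*, a chaperone of snoRNPs, of -0.17 with the interval -1.42 to 1.09, the widest of the 40 members. *Ddx21*, an RNA helicase, was the member with the highest log2 fold change, 0.19 (-0.66 to 1.04), although its value in sg*Kmt2c* line 1 was below all 3 sg*Trp53* lines.

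The box C/D snoRNP, which methylates ribosomal RNA, had no member past the test, and the 95% interval of each included 0. *Nop58*, a core protein, measured 486, 425 and 529 RPKM across sg*Trp53* lines 1 to 3, against 362, 451 and 530.4 RPKM across sg*Kmt2c* lines 1 to 3, and its log2 fold change was -0.11 (-0.62 to 0.40). Its partner *Nop56* had the narrowest interval of the 40 members, with values from 216 to 265 RPKM over the 6 lines, and its highest value was in sg*Kmt2c* line 1 (log2 fold change 0.02, 95% interval -0.38 to 0.42). The methyltransferase *Fbl* (fibrillarin) differed by -0.13 on the log2 scale (-1.04 to 0.77) and was lowest in sg*Kmt2c* line 1. In this group 2 of the 3 members were lowest in that line, and the median log2 fold change was -0.11.

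The box H/ACA snoRNP, which converts uridine to pseudouridine in ribosomal RNA and is also part of telomerase, had all 4 core members lower on average in the sg*Kmt2c* lines and lowest in sg*Kmt2c* line 1, with the lowest median log2 fold change of the 7 role groups (-0.34). *Gar1*, which binds the catalytic subunit, measured 118, 113 and 116 RPKM across sg*Trp53* lines 1 to 3, against 62.0, 74.8 and 93.9 RPKM across sg*Kmt2c* lines 1 to 3. Its 3 sg*Trp53* values were close to each other, all 3 sg*Kmt2c* values were below them, and the means were 116 ± 2.50 RPKM (SD, n = 3) and 76.9 ± 16.1 RPKM (SD, n = 3). The log2 fold change was -0.60 (95% interval -1.08 to -0.12, unadjusted p = 0.0212 and adjusted p = 0.50, limma), which did not pass the adjusted threshold. An exact two-sided permutation test gave p = 0.1, the smallest that 3 against 3 lines allow. *Dkc1* (dyskerin), the pseudouridine synthase, measured 74.4, 51.1 and 59.3 RPKM across sg*Trp53* lines 1 to 3, against 35.3, 58.1 and 53.2 RPKM across sg*Kmt2c* lines 1 to 3, and sg*Trp53* line 2 lay among the sg*Kmt2c* lines. *Nhp2*, with the highest mean of the 4, measured 142, 114 and 118 RPKM across sg*Trp53* lines 1 to 3, against 75.2, 87.2 and 146 RPKM across sg*Kmt2c* lines 1 to 3, and its highest value was in sg*Kmt2c* line 3. *Nop10*, the smallest core protein, measured 91.1, 67.1 and 55.8 RPKM across sg*Trp53* lines 1 to 3, against 43.8, 59.9 and 64.3 RPKM across sg*Kmt2c* lines 1 to 3, with the groups overlapping. The log2 fold changes of *Dkc1*, *Nhp2* and *Nop10* were -0.34, -0.33 and -0.33, and each interval included 0.

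*Pes1*, *Bop1* and *Wdr12* form the PeBoW complex, which is needed to process the RNA of the large subunit, and they did not share a direction. *Pes1*, whose E-box is among those printed above, measured 70.5, 74.4 and 61.0 RPKM across sg*Trp53* lines 1 to 3, against 44.4, 57.1 and 57.1 RPKM across sg*Kmt2c* lines 1 to 3, with means of 68.6 ± 6.91 RPKM (SD, n = 3) and 52.9 ± 7.32 RPKM (SD, n = 3). All 3 sg*Kmt2c* values were below the 3 sg*Trp53* values, with 57.1 RPKM in sg*Kmt2c* lines 2 and 3 and 61.0 RPKM in sg*Trp53* line 3 close to each other. Its log2 fold change was -0.37 (-0.83 to 0.08, unadjusted p = 0.092 and adjusted p = 0.630, limma), and the exact permutation p was again 0.1. *Bop1*, with the highest mean of the 3, measured 96.8, 69.6 and 90.6 RPKM across sg*Trp53* lines 1 to 3, against 50.7, 133 and 124 RPKM across sg*Kmt2c* lines 1 to 3. Its sg*Kmt2c* lines 2 and 3 were above every sg*Trp53* line and its sg*Kmt2c* line 1 was below every one, which left a log2 fold change of 0.15 (-0.78 to 1.08). *Wdr12*, the WD-repeat member, had a log2 fold change of -0.19 (-0.75 to 0.36). All 3 genes were lowest in sg*Kmt2c* line 1.

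Of the 10 small subunit assembly factors, 9 had a lower mean in the sg*Kmt2c* lines (median log2 fold change -0.24) and 7 were lowest in sg*Kmt2c* line 1. *Rrp9*, which binds the U3 snoRNA, had the highest mean of the 10 and measured 169.8, 111 and 252 RPKM across sg*Trp53* lines 1 to 3, against 67.1, 152 and 254 RPKM across sg*Kmt2c* lines 1 to 3. Its lines varied by more than the genotypes differed, and its interval ran from -1.55 to 0.97. *Nop14*, a factor of the first precursor particle, measured 65.5, 52.8 and 67.8 RPKM across sg*Trp53* lines 1 to 3, against 43.4, 51.8 and 61.1 RPKM across sg*Kmt2c* lines 1 to 3 (log2 fold change -0.25). *Noc4l*, its binding partner, measured 48.4, 37.8 and 38.8 RPKM across sg*Trp53* lines 1 to 3, against 27.0, 20.3 and 52.5 RPKM across sg*Kmt2c* lines 1 to 3, a log2 fold change of -0.42 that was the lowest of this group. sg*Kmt2c* lines 1 and 2 were below every sg*Trp53* line for *Noc4l*, and sg*Kmt2c* line 3 was above them. *Heatr1*, a scaffold that also couples assembly to Pol I transcription, showed the same pattern, at 38.1, 30.4 and 36.2 RPKM against 22.9, 21.2 and 42.3 RPKM (log2 fold change -0.33). *Tsr1*, a GTPase-like protein of the late particle whose window also holds an E-box, measured 94.2, 86.6 and 86.0 RPKM across sg*Trp53* lines 1 to 3, against 58.1, 91.2 and 77.5 RPKM across sg*Kmt2c* lines 1 to 3 (log2 fold change -0.25). *Nob1*, the endonuclease that makes the last cut of the small subunit RNA, measured 35.7, 35.1 and 30.9 RPKM across sg*Trp53* lines 1 to 3, against 26.3, 27.8 and 33.1 RPKM across sg*Kmt2c* lines 1 to 3, a narrow range with only 1 of the sg*Kmt2c* lines inside the sg*Trp53* range (log2 fold change -0.22). The other four had log2 fold changes of -0.14 for *Wdr43* and -0.10 for *Utp20*, both components of early processing complexes with an E-box in the window, -0.10 for *Rcl1*, which is involved in an early cut of the precursor, and 0.15 for *Rrp12*, which helps the particles leave the nucleus. *Rrp12* was lowest in sg*Trp53* line 2. Every interval in the group included 0.

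The large subunit assembly factors were mixed in direction, with 7 of 11 lower on average in the sg*Kmt2c* lines, a median log2 fold change of -0.20 and 7 lowest in sg*Kmt2c* line 1. *Gnl3* (nucleostemin), a nucleolar GTPase of proliferating cells and the most abundant of the 11, measured 115, 111 and 96.7 RPKM across sg*Trp53* lines 1 to 3, against 83.2, 92.1 and 115 RPKM across sg*Kmt2c* lines 1 to 3 and overlapped between the groups (log2 fold change -0.16). *Noc2l*, which escorts early large subunit particles and is also known to bind p53, measured 94.8, 97.4 and 83.2 RPKM across sg*Trp53* lines 1 to 3, against 30.7, 62.4 and 105 RPKM across sg*Kmt2c* lines 1 to 3. It had the lowest log2 fold change of all members, -0.63 (-1.64 to 0.38), but its sg*Kmt2c* values ran from the lowest to the highest of the 6 lines. *Nip7*, a partner of late precursor particles, measured 31.2, 21.1 and 21.4 RPKM across sg*Trp53* lines 1 to 3, against 16.7, 13.4 and 23.2 RPKM across sg*Kmt2c* lines 1 to 3 (log2 fold change -0.46), where sg*Kmt2c* lines 1 and 2 were below every sg*Trp53* line. *Ddx18*, an RNA helicase, measured 45.3, 49.4 and 63.1 RPKM across sg*Trp53* lines 1 to 3, against 30.6, 40.4 and 54.8 RPKM across sg*Kmt2c* lines 1 to 3 (log2 fold change -0.35), with the same 2 sg*Kmt2c* lines below the sg*Trp53* lines. *Mrto4*, which holds the place of the ribosomal stalk during assembly, measured 100.3, 95.9 and 88.5 RPKM across sg*Trp53* lines 1 to 3, against 45.2, 78.6 and 120.2 RPKM across sg*Kmt2c* lines 1 to 3 (log2 fold change -0.33). sg*Kmt2c* line 3 held its highest value and sg*Kmt2c* line 1 its lowest. *Ebna1bp2*, an early assembly factor, had a log2 fold change of -0.35 and *Nop16*, a nucleolar factor, of -0.20. The 4 with a positive value were *Wdr74* (0.11), which acts with a remodelling ATPase, *Rrs1* (0.09), which helps bring in the smallest ribosomal RNA, *Rrp1b* (0.07), a nucleolar protein, and *Nop2* (0.02), an RNA cytosine methyltransferase with an upstream E-box. *Wdr74*, *Rrs1* and *Nop2* were lowest in sg*Trp53* line 2, and *Rrp1b* in sg*Kmt2c* line 1.

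**Figure D4:**
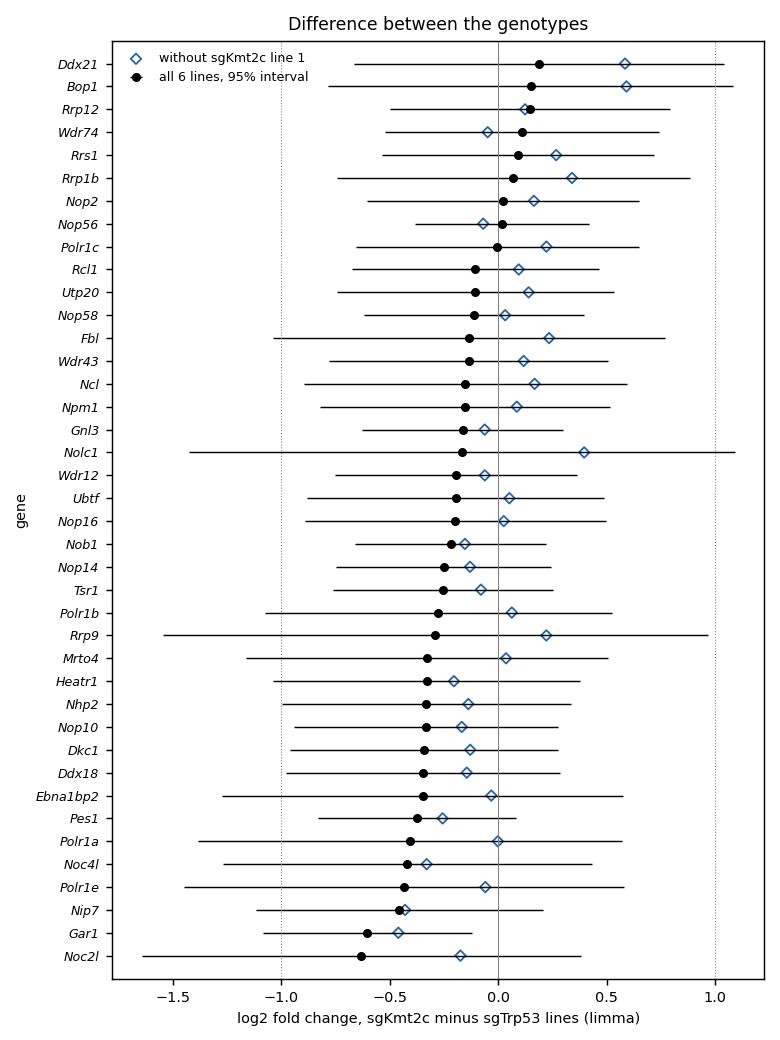
Filled points give the log2 fold change of each member (x axis, sg*Kmt2c* minus sg*Trp53* lines, limma on log2(RPKM + 1)) with its 95% interval, sorted by value, and open diamonds the value without sg*Kmt2c* line 1. Only the interval of *Gar1* excludes 0, and the diamonds lie to the right of the points for 37 of the 40 genes.

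Leaving out sg*Kmt2c* line 1 moved the median log2 fold change of the members from -0.20 to 0.01, and the number with a lower mean from 32 to 20 of 40, against 54.4% of all genes tested in that fit. The sign changed in 16 members, among them *Npm1* (0.09), *Ncl* (0.17), *Fbl* (0.23) and *Nolc1* (0.40). *Gar1* remained lower (-0.46), and *Ddx21* (0.59) and *Bop1* (0.59) were then higher, these 3 at an unadjusted p-value under 0.05 in limma and none after adjustment. In the same fit 5.31% of all genes tested were lower and 3.94% higher at that threshold, so a count of 1 and 2 of 40 is near the background. Leaving out sg*Kmt2c* line 3 moved the median the other way, to -0.36, with 36 members lower (58.2% of all genes tested) and 6 lower at an unadjusted p-value under 0.05 (*Gar1*, *Nhp2*, *Noc2l*, *Noc4l*, *Heatr1* and *Polr1e*), where 8.52% of all genes tested were. The count of members past the adjusted threshold was 0 without any single line. The call of *Gar1* at the unadjusted threshold was lost without any one of the sg*Trp53* lines or sg*Kmt2c* line 2.

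*Myc* itself measured 98.1, 60.1 and 47.1 RPKM across sg*Trp53* lines 1 to 3, against 90.9, 90.5 and 57.0 RPKM across sg*Kmt2c* lines 1 to 3 and did not pass the test (log2 fold change 0.25, adjusted p = 0.816, limma). Whether reads of the transposon's *Myc* cDNA are part of this value was not stated in the sources used here. The level of the 40 genes did not follow *Myc* from line to line. The geometric mean of RPKM + 1 over the 40 genes was 75.2, 43.7 and 62.6 in the lines with the highest *Myc* (sg*Trp53* line 1, sg*Kmt2c* line 1 and sg*Kmt2c* line 2), and 60.7, 76.4 and 69.3 in the lines with the lowest (sg*Trp53* line 2, sg*Kmt2c* line 3 and sg*Trp53* line 3). With the *Myc* transposon in every line, whether MYC drives these genes here could not be compared with its absence, so the set is called by its function. Of the paralogs, *Mycl* measured 5.52, 9.25 and 27.8 RPKM across sg*Trp53* lines 1 to 3, against 1.65, 12.6 and 4.85 RPKM across sg*Kmt2c* lines 1 to 3 from 3 to 74 reads (log2 fold change -1.06, adjusted p = 0.712, limma), and *Mycn* stayed at or below 0.706 RPKM and was not tested.

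Other readouts set sg*Kmt2c* line 1 apart as well, and some set other lines apart. sg*Trp53* line 2 had the highest sum of fibroblast markers (986 RPKM) and the lowest of epithelial and biliary markers (115 RPKM). sg*Kmt2c* line 2 had the lowest sum of hepatocyte markers (2.33 RPKM). The sum of 10 proliferation genes (among them *Mki67*, *Top2a* and *Pcna*, markers of cycling cells) was 1058, 1048 and 1074 RPKM for sg*Trp53* and 421, 869 and 1223 RPKM for sg*Kmt2c*. All 10 genes were lowest in sg*Kmt2c* line 1, as were 35.9% of all genes tested. The same line had the highest sum of hepatocyte markers (5614 RPKM) and of epithelial and biliary markers (7386 RPKM). It had the lowest sum of fibroblast markers (0.282 RPKM, with 6 of 8 genes at 0). *Apob* (4385 RPKM) and *Hnf4a* (1186 RPKM) made up most of its hepatocyte sum. *Afp* (19.3 RPKM), *Ttr* (14.1 RPKM), *Alb* (4.36 RPKM), *Serpina1a* (2.95 RPKM), *Apoa1* (1.44 RPKM) and *Cps1* (1.38 RPKM) were low there but also highest in that line. *Tat* went the other way, at 0 there and highest in sg*Trp53* line 1 (1.38 RPKM), and *G6pc* was at 0 in every line. The transcript lengths listed for *Apob* and *Hnf4a*, 1118 and 431 bases, enter the size of the hepatocyte sum. The depth of sg*Kmt2c* line 1, 4704539 reads, was within the range of the others. The part of proliferation and cell state in the level of the 40 genes was not tested. In RNA from whole cultures, fewer cells that express a program and less of its RNA per cell cannot be told apart.

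**Figure D5:**
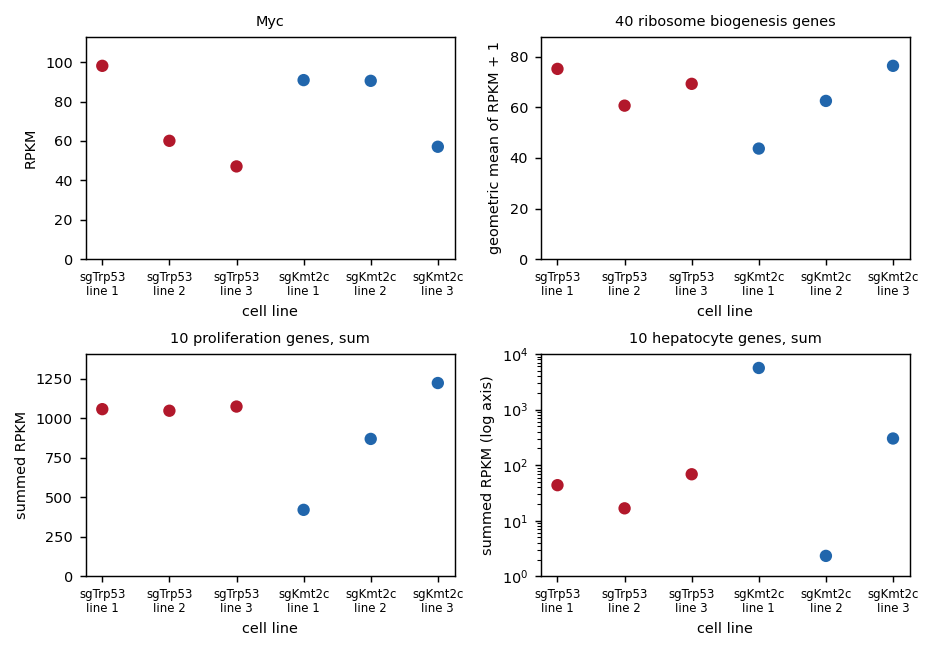
Each point is 1 cell line, red for sg*Trp53* and blue for sg*Kmt2c*. The panels show *Myc* (RPKM), the geometric mean of RPKM + 1 over the 40 genes, the summed RPKM of 10 proliferation genes and, on a log axis, that of 10 hepatocyte markers. sg*Kmt2c* line 1 has the lowest point for the 40 genes (43.7) and for proliferation (421 RPKM), the highest for hepatocyte markers (5614 RPKM), and 90.9 RPKM of *Myc*.

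A wider list of 106 other ribosome biogenesis genes, of which 104 were in the table and tested, showed the same lack of calls. None passed the adjusted threshold (limma). At an unadjusted p-value under 0.05, 6 were lower and 1 higher in the sg*Kmt2c* lines (5.34% and 3.25% of all genes tested). The median log2 fold change was -0.15, with 75 lower (58% of all genes tested) and 29 higher. Here 56 of the 104 were lowest in sg*Kmt2c* line 1 (35.9% of all genes tested). The lines did not overlap in 16 that were lower and 4 that were higher (10.4% and 5.72% of all genes tested). Among 11 Pol I genes, *Tcof1* (treacle, which recruits factors to ribosomal DNA) measured 63.5, 65.9 and 67.3 RPKM across sg*Trp53* lines 1 to 3, against 17.1, 29.3 and 69.4 RPKM across sg*Kmt2c* lines 1 to 3, with sg*Kmt2c* lines 1 and 2 below and line 3 above the sg*Trp53* lines (log2 fold change -0.98), and *Taf1c* had -0.24. *Taf1b*, a subunit with *Taf1c* of the factor that selects the Pol I promoter, had 0.60, and the Pol I subunit *Cd3eap* 0.21. Among 37 small subunit genes, the RNA helicase *Ddx52* measured 32.2, 38.5 and 33.3 RPKM across sg*Trp53* lines 1 to 3, against 17.2, 18.0 and 26.4 RPKM across sg*Kmt2c* lines 1 to 3, without overlap (log2 fold change -0.75, adjusted p = 0.461, limma), and the U3 particle component *Wdr3* likewise (-0.67, adjusted p = 0.518, limma). The most positive were *Utp14a* (0.58) and *Imp3* (0.54), both components of the early small subunit particle.

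Among 41 large subunit genes, *Mdn1* (midasin, the AAA ATPase that strips assembly factors) measured 20.2, 17.2 and 14.6 RPKM across sg*Trp53* lines 1 to 3, against 6.99, 10.9 and 12.4 RPKM across sg*Kmt2c* lines 1 to 3 (log2 fold change -0.75, adjusted p = 0.542, limma), and the GTPase *Gnl2* 209.6, 177 and 189.5 RPKM across sg*Trp53* lines 1 to 3, against 84.6, 116 and 153 RPKM across sg*Kmt2c* lines 1 to 3 (-0.73, adjusted p = 0.503, limma). The lines did not overlap in either. *Gltscr2*, which is also known to stabilize p53, was the 1 gene of the list that was higher at an unadjusted p-value under 0.05, at 45.4, 33.1 and 34.4 RPKM against 64.7, 51.4 and 60.5 RPKM (log2 fold change 0.64, adjusted p = 0.489, limma), and *Gnl3l*, a relative of *Gnl3*, had 0.54. Among 15 snoRNP and exosome genes, which process or degrade RNA in the nucleus, *Exosc8* (-0.79) and *Exosc2* (-0.63) had the lowest log2 fold changes and *Exosc5* (0.25) and the H/ACA assembly chaperone *Shq1* (0.05) the highest. The 22 MYC targets outside ribosome biogenesis included *Odc1*, *Cad* and *Ldha* of polyamine, nucleotide and glucose metabolism. Of the 22, 0 passed the adjusted threshold and 0 the unadjusted one. In 18 the mean was lower, against 58% of all genes tested (median log2 fold change -0.14). *Odc1* (0.42) and *Ldha* (0.31) were among the 4 with a higher mean. In sg*Kmt2c* line 1, 15 of the 22 were lowest, against 35.9% of all genes tested.

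The fold changes depend on transcript length only through the 1 added to RPKM, while the levels depend directly on the length by which the table divides. It equals the longest coding transcript of the GENCODE vM1 annotation in 29 of the 39 members found there, is under 50% of it for *Nop58* (576 against 2587 bases), *Rrp9* (449 against 1586 bases) and *Tsr1* (1549 against 3389 bases), and is over 2 times as long for *Wdr12* (10012 against 3251 bases). At the longest transcript the mean level would be 103 RPKM for *Nop58*, 47.5 RPKM for *Rrp9*, 37.6 RPKM for *Tsr1* and 23.9 RPKM for *Wdr12*. Their places in the order of levels within their role groups are therefore uncertain. So is the place of *Wdr12* as the lowest member and below the median of all genes tested (14.7 RPKM). In 14 members the gene overlaps another listed gene, which in 10 (*Polr1a*, *Polr1e*, *Nop56*, *Dkc1*, *Nhp2*, *Bop1*, *Wdr12*, *Rrp9*, *Tsr1* and *Gnl3*) has a level of at least 1 RPKM. How the counting treated such reads was not given in the sources used here, and their values are uncertain to that extent.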

How the data were processed

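RNA-seq of 6 liver tumor cell lines was analysed, 3 *Myc*; sg*Trp53* and 3 *Myc*; sg*Kmt2c*, grouped and numbered by the sample labels. Per the labels and the study's methods, Trimmomatic, STAR (build GRCm38) and HTSeq served for adaptor removal, alignment and counting. The authors deposited RPKM for each library, without pooling. The deposited table has 21065 rows, of which 209 hold no values, and 6 sample columns of other samples that were not used. A deposited table of the authors' own DESeq2 comparison (mean count, fold change and p-values) was not used. RPKM times the listed length came in steps of a constant size in each library. Dividing by that step, which also gives the library total, returned whole reads (within 0.01 of a read) for 100% of values, from which the depths were taken. Strand use in counting was not given in the sources used here.

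A gene was tested where 3 or more of the 6 libraries reached 1 RPKM (11617 genes). Values on the scale log2(RPKM + 1) entered limma 3.58.1 (R 4.3.3) with genotype as the single term, and eBayes allowed for a mean-variance trend (two-sided), with Benjamini-Hochberg adjustment over all of them at a threshold of 0.05. Fold changes are on the log2(RPKM + 1) scale, which understates those of low genes. Whether the test would find differences as small as those of the members was not tested. Per the study's methods the lines of a genotype are independent, and its resource table gives them different mice. On that statement p-values measure the spread between such lines. The names of sg*Kmt2c* lines 2 and 3 in the labels share a number that the sources used here do not explain. Replicate numbers were not treated as pairs. Deviations of lines with the same number correlated at 0.19, 0.40 and 0.03, and the labels do not say that a number marks a shared batch.

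The members and gene lists were chosen with earlier results of these data known. Values in every line were given for the 16 members with the lowest unadjusted p-values and for the member with the highest mean in each of 7 role groups. Outside the members, genes were named for their part in the design (*Myc*, *Mycn*, *Mycl*, *Trp53*, *Kmt2c*) or as the 2 highest and 2 lowest log2 fold changes of a pathway list. Marker, proliferation and MYC target genes named as examples of their lists fall outside this rule and were chosen after their values were seen. The 17 alternatives changed the pseudocount, the filter, the scaling, the moderation, the test, the block and the lines entered. Promoter windows are from RefSeq (GRCm38.p6, first window of a symbol). Plots were drawn with matplotlib 3.10.9.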

Additional observations from a re-analysis of the deposited data

How the results depend on the processing

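The count of members past the adjusted threshold was 0 under all 17 alternatives. All genes past it numbered 15, and 0 to 40 over the alternatives (0 without any 1 line other than sg*Kmt2c* line 1, 40 with no filter on low values). Leaving out 1 line at a time gave medians of the members' log2 fold change from -0.36 to 0.01, 20 to 36 members with a lower mean in sg*Kmt2c*, 0 to 6 members lower and 0 to 2 higher at an unadjusted p-value under 0.05, and 2 to 16 lower and 0 to 2 higher without overlap of the lines. The highest counts, 6 and 16, came without sg*Kmt2c* line 3, where 8.52% of all genes tested were lower at that threshold and 21.0% lower without overlap. Over these fits 2.75% to 8.52% of all genes were lower and 2.10% to 4.19% higher at that threshold, and 14.3% to 21.0% lower and 7.96% to 11.4% higher without overlap. With no filter, 2 members (*Gar1* and *Pes1*) were lower at an unadjusted p-value under 0.05. With quantile scaling 1 member was lower without overlap, and with sg*Kmt2c* lines 2 and 3 as a single sample 9 were (8.26% and 18.6% of all genes tested). The replicate number as a block left 0 members past the adjusted threshold and 1 past the unadjusted one, and took the count of all genes from 15 to 0. With this pairing the median log2 fold change of the members stayed at -0.20. The labels give the lines a shared number and nothing more, and sg*Trp53* line 3 correlated more with sg*Kmt2c* line 1 (0.15) than with sg*Kmt2c* line 3 (0.03).

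The sign of the log2 fold change turned with TPM scaling for *Nop56* (-0.0087) and *Nop2* (-0.0029), with quantile scaling (0.026) and median-of-ratios scaling (0.074) for *Polr1c*, and with sg*Kmt2c* lines 2 and 3 as a single sample for *Ddx21* (-0.0071), *Bop1* (-0.069), *Nop2* (-0.046) and *Rrp1b* (-0.064). Leaving out lines turned it for 22 members, with these lowest and highest values: *Polr1c* (-0.17 to 0.22), *Nolc1* (-0.56 to 0.40), *Fbl* (-0.44 to 0.23), *Nop56* (-0.069 to 0.077), *Rrp12* (-0.089 to 0.36), *Nop2* (-0.20 to 0.16), *Rrp1b* (-0.15 to 0.34), *Rrs1* (-0.11 to 0.27), *Wdr74* (-0.060 to 0.32), *Rrp9* (-0.73 to 0.22), *Polr1b* (-0.55 to 0.063), *Ubtf* (-0.43 to 0.052), *Ncl* (-0.35 to 0.17), *Npm1* (-0.31 to 0.086), *Nop58* (-0.24 to 0.032), *Utp20* (-0.27 to 0.14), *Wdr43* (-0.30 to 0.12), *Rcl1* (-0.29 to 0.095), *Nop16* (-0.46 to 0.026), *Mrto4* (-0.66 to 0.036), *Ddx21* (-0.026 to 0.59) and *Bop1* (-0.096 to 0.59). None of these was past the adjusted threshold in any setting, and the causes were not tested. Other settings kept the direction of every member. No scaling moved the median of all genes by more than 0.08 on the log2 scale.

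With 3 lines a genotype a member's interval reached 0.66 to either side at the median (log2 scale), and depth did not fall below 69 reads for any member and library.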
